A study of Mus musculus with 15 samples.

Results

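The transcripts of 9 genes of haem synthesis, haem breakdown, iron storage, iron transport and muscle oxygen binding were followed in cultured mouse muscle precursors, out of 49315 gene IDs in the count tables. All 9 were found in the tables by symbol: Mb, Fech, Alas1, Urod, Hmox1, Ftl1, Fth1, Tfrc and Slc40a1. The set was chosen by its measured values, because Mb, Fech and Ftl1 differed between the groups. The differences of those 3 genes are therefore given as a description, with no test. The other 6 were listed with earlier results of these data known. Polyadenylated RNA was sequenced from primary myoblasts of wild-type C57BL/6J mice. Before 1 day of differentiation the cells took up small interfering RNA with a lipid reagent. It was directed against Lmod1 (siLmod1), which encodes an actin-binding protein of the leiomodin family, or against Sirt1 (siSirt1), which encodes an NAD-dependent protein deacetylase, or was a control RNA (siCtrl). Each group held 5 libraries, numbered 1, 2, 3, 4 and 7, which are read here as the 5 primary myoblast lines that the study used, each line giving 1 library to every group. The labels give 1 treatment per target and no sequence of the small RNAs. RNA interference lowers a message and leaves the gene in place.

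Haem is an iron-containing ring built in a chain of enzymes that begins and ends in the mitochondrion. The first enzyme condenses glycine with succinyl-CoA and sets the pace of the chain, and the last one inserts ferrous iron into protoporphyrin. Muscle uses haem for mitochondrial cytochromes and for myoglobin, the oxygen-binding protein that gives red muscle its colour. Iron enters cells bound to transferrin through the transferrin receptor, is stored inside shells of ferritin heavy and light chains, and leaves through ferroportin, while haem oxygenase opens the haem ring and frees its iron. When iron is scarce, the iron regulatory proteins bind a hairpin in some of these messages, the iron-responsive element. The bound hairpin blocks translation when it lies before the coding sequence and protects the message from decay when it lies after it.

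The elements are shown because they are a sequence feature that several of these messages share. A pattern of 23 bases was searched on the sense strand of GENCODE M21 transcripts. It required 3 paired bases, a bulged C, 5 paired bases and the loop CAGTGN with a last base other than G, with G-T pairs allowed. Of 21901 protein-coding genes, 12 held a match in an untranslated region, which is 0.0548%. They included 4 of the 9 genes, namely Fth1, Ftl1, Slc40a1 and Tfrc. The pattern describes the element as it is known in iron genes, so these matches were foreseen and are no test of the set. In the lines that follow, each in the sense direction from 5′ to 3′ as DNA letters, the capitals mark the loop.
Fth1, 5′ UTR, chr19:9982735-9982757, plus strand: ctgcttcaaCAGTGCttgaacgg
Ftl1, 5′ UTR, chr7:45459782-45459804, minus strand: ttgcttcaaCAGTGTttgaacgg
Slc40a1, 5′ UTR, chr1:45925468-45925490, minus strand: cttcagctaCAGTGTtagctaag
Tfrc, 3′ UTR, chr16:32631222-32631244, plus strand: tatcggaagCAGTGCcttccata
Tfrc, 3′ UTR, chr16:32631601-32631623, plus strand: tatcgggagCAGTGTcttccata
Tfrc, 3′ UTR, chr16:32631666-32631688, plus strand: tatcggagaCAGTGAtctccata
Tfrc, 3′ UTR, chr16:32631713-32631735, plus strand: tatcgggaaCAGTGTttcccata
The elements of the ferritin messages Fth1 and Ftl1 had 21 of 23 bases in common. The coordinates are those of mm10, the build of the deposited files. A match describes the letters only, and a gene without one may hold an element of another form. The only match among 78 other haem and iron genes was in Alas2, the first enzyme of the chain in red blood cell precursors, which had at most 16 counts in any library.

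The libraries held 21004908 to 33601761 counts each. Lmod1 averaged 2.79 TPM (transcripts scaled by length and library) in siLmod1 cells, against 23.8 TPM in siCtrl cells, and Sirt1 averaged 4.01 TPM in siSirt1 cells, against 15.1 TPM in siCtrl cells. Line 4 stood apart on the first principal component in all 3 groups, and the siSirt1 library of line 7 stood apart on the second. Libraries of the same number deviated together in all 15 pairs, most weakly in line 1 for its siSirt1 library, so values are given also from a model that compares groups within lines (line as a block). In that model Sirt1 rose in siLmod1 relative to siCtrl cells (mean 22.6 against 15.1 TPM, log2 fold change 0.54, adjusted p = 0.000141, edgeR). Lmod1 fell in siSirt1 relative to siCtrl cells (mean 14.0 against 23.8 TPM, log2 fold change -0.96, adjusted p = 0.0271). Without the block neither was called (adjusted p = 0.514 and 0.716). The 6 myoblast identity genes summed to 5854 to 9556 TPM in siLmod1, 5382 to 8824 TPM in siSirt1 and 6648 to 10865 TPM in siCtrl libraries, with Myod1 at 1043 to 1645 TPM over all libraries. The 5 smooth muscle and pericyte markers summed to 3684 to 9771 TPM in siLmod1, 2426 to 7788 TPM in siSirt1 and 4614 to 10446 TPM in siCtrl libraries, nearly all of it smooth muscle actin, Acta2, which cultured myoblasts also make, while Myh11 had at most 38 counts. With the line as a block, 3 of these 5 fell in siLmod1 relative to siCtrl cells, or 60.0%, beside 16.5% of all genes. They were Abcc9 (log2 fold change -1.18), Rgs5 (-1.09) and Cspg4 (-0.72). In siSirt1 relative to siCtrl cells 2 of the 5 fell, or 40.0%, beside 4.35% of all genes. They were Abcc9 (-1.31) and Acta2 (-0.82). Cspg4 was not called without line 1, 2 or 3. In siSirt1 against siCtrl, Acta2 was not called without line 1 or 4, nor Abcc9 without line 1. Without the block 0 of 5 were called in all 3 comparisons by edgeR or DESeq2, with 0 at an unadjusted p under 0.05 in edgeR. The part of these markers in the results was not tested. The 6 macrophage markers summed to at most 4.24 TPM in siLmod1, 1.67 TPM in siSirt1 and 4.41 TPM in siCtrl libraries, and the 4 endothelial markers to at most 1.54 TPM in any library. The 5 fibroblast markers summed to 3.11 to 4.79 TPM in siLmod1, 2.10 to 14.3 TPM in siSirt1 and 3.79 to 10.2 TPM in siCtrl libraries. The 7 erythroid markers summed to 2.46 to 12.5 TPM in siLmod1, 5.41 to 21.8 TPM in siSirt1 and 3.68 to 21.7 TPM in siCtrl libraries. Most of that was Epor, while the haemoglobin gene Hba-a1 had at most 9 counts in a library.

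Ferritin heavy chain, Fth1, was the most abundant of the 9 messages at a mean of 3489 TPM over the 15 libraries. It was followed by Ftl1 at 1481 TPM, Mb at 744 TPM, Fech at 205 TPM, Hmox1 at 180.1 TPM, Tfrc at 162 TPM, Alas1 at 56.6 TPM, Urod at 54.4 TPM and the iron exporter gene Slc40a1 at 6.31 TPM. Some neighbours changed places between the groups. Ftl1 lay above Mb in 0 of 5 siLmod1, 5 of 5 siSirt1 and 4 of 5 siCtrl libraries, and Fech above Hmox1 in 5 of 5 siLmod1, 1 of 5 siSirt1 and 4 of 5 siCtrl libraries. Hmox1 lay above Tfrc in 3 of 5 siLmod1, 4 of 5 siSirt1 and 1 of 5 siCtrl libraries, and Alas1 above Urod in 4 of 5 siLmod1, 2 of 5 siSirt1 and 4 of 5 siCtrl libraries, so the libraries of no group gave 1 order for these pairs. Mb lay above Fech, Tfrc above Alas1, and Urod above Slc40a1 in all 15 libraries. These levels are per length, and the authors' lengths were short for Fech, where count over TPM implied 2901 bases against 13838 exon bases in M21, and for Fth1, with 866 against 3469 bases. With levels not divided by length (CPM), 5 of 9 genes kept their rank.

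**Figure D1:**
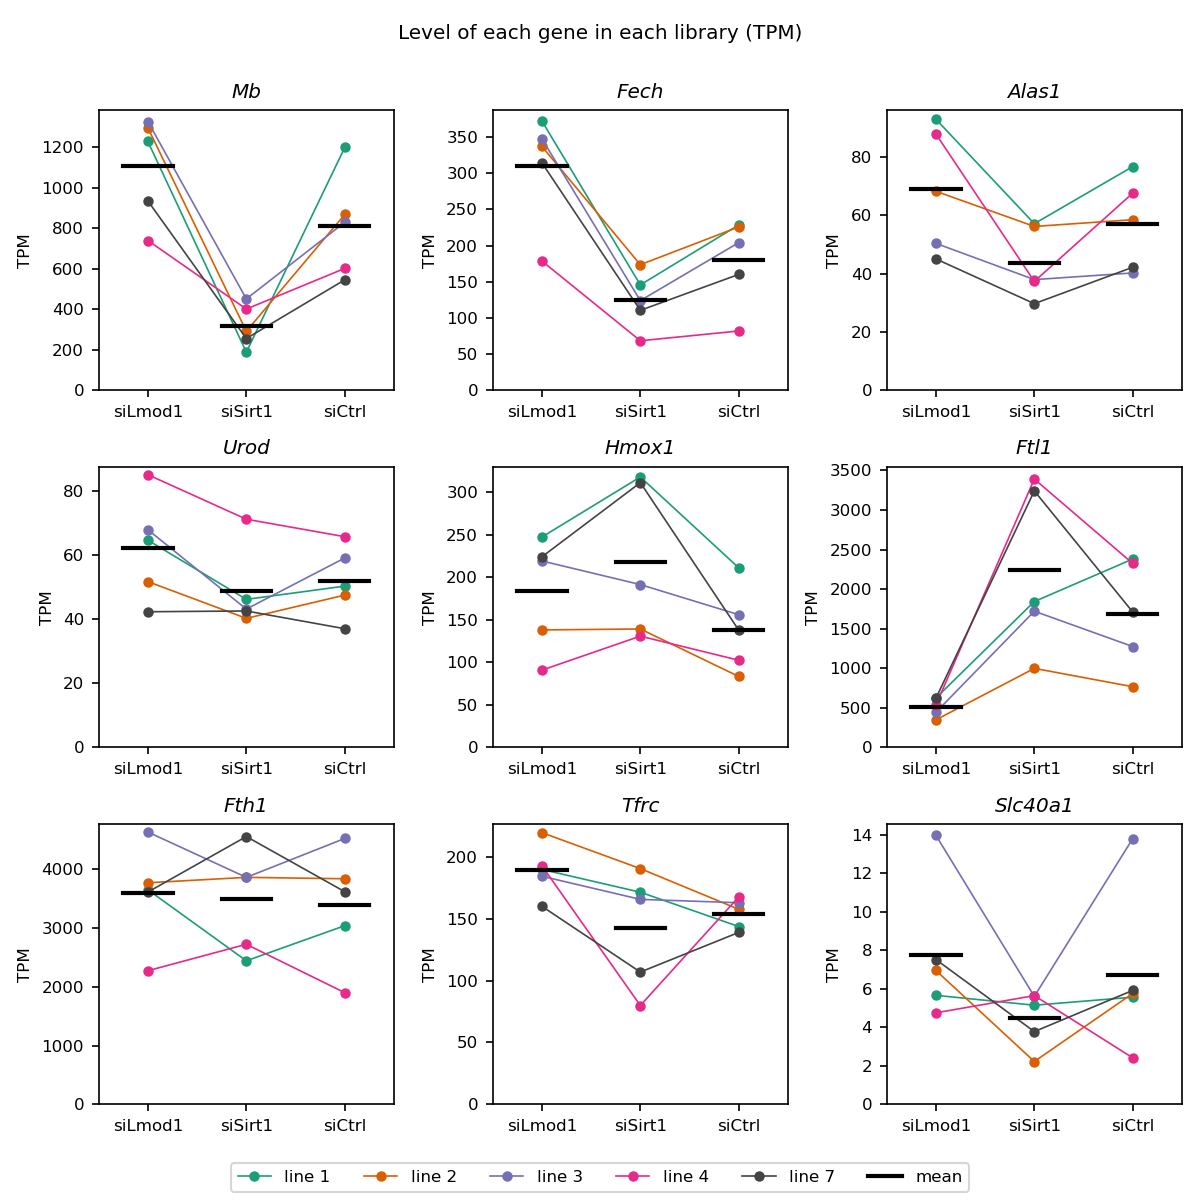
Level of each of the 9 genes in TPM (vertical axis, from 0) in the siLmod1, siSirt1 and siCtrl libraries. Each coloured line joins the 3 libraries of 1 primary line and each black bar is the mean of 5 libraries. The siSirt1 points of Mb and the siLmod1 points of Ftl1 lie apart from the other groups, whereas Fth1 differs mainly between lines.

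The genes differed in whether their level followed the treatment or the line. Between the groups lay 79.2% of the variance of log2 TPM for Mb, 71.9% for Ftl1 and 58.0% for Fech, which is what chose them. Between the lines lay 80.0% for Fth1, 70.7% for Urod, 70.6% for Hmox1 and 57.4% for Alas1. For Tfrc and Slc40a1, 40.6% and 34.9% were left to neither. Line 4, for example, had the lowest mean Fech level, 109.8 TPM over its 3 libraries against 195 to 249 TPM in the other 4 lines, and the highest mean Ftl1 level, 2083 TPM against 705 to 1857 TPM.

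**Figure D2:**
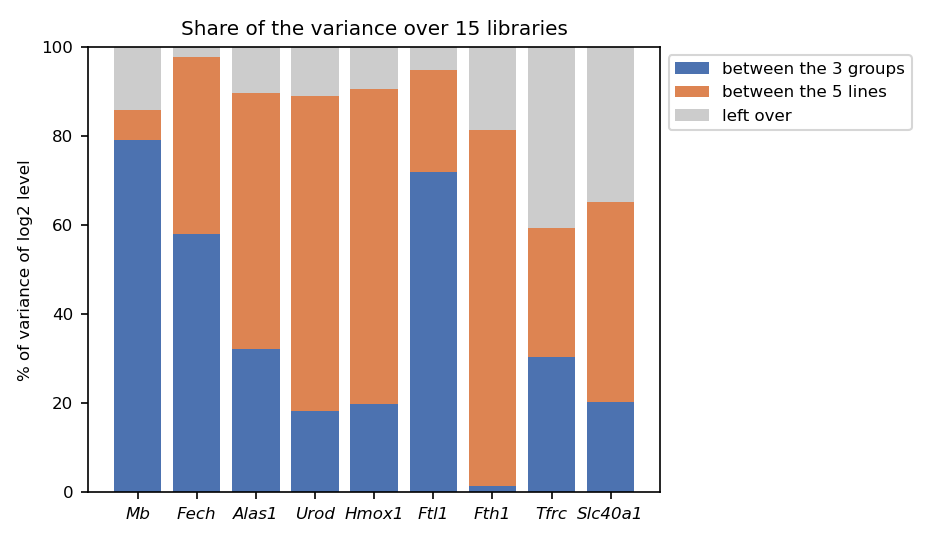
Share of the variance of log2 TPM (percent, vertical axis) that lay between the 3 groups, between the 5 lines and in neither, for each gene over 15 libraries. For Mb 79.2% lay between the groups, and for Fth1 80.0% lay between the lines.

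Among the 6 tested genes, edgeR's quasi-likelihood test without lines as a block called 0 of 6 in each of the 3 comparisons, at an adjusted p under 0.05 over all genes. Over all genes that fit called 0.113% for siLmod1 against siCtrl, 0.127% for siSirt1 against siCtrl and 1.53% for siSirt1 against siLmod1. The adjusted p of the 6 lay at 0.576 to 0.988, 0.563 to 0.958 and 0.187 to 0.896 in these comparisons. An unadjusted p under 0.05 was reached by 0, 0 and 2 of the 6. Over all genes it was reached by 1351 of 15022, 1440 of 14912 and 2475 of 14998. DESeq2 without the block also called 0 of 6 in each comparison. For all 9 genes the log2 fold changes with and without the block differed by at most 0.090, so what follows gives the blocked values, with the SE of that fit. With the line as a block, 4 of 6 rose in siLmod1 relative to siCtrl cells and 0 fell, while 12.9% of all genes were higher and 16.5% lower. The 4 were Alas1, Urod, Hmox1 and Tfrc. In siSirt1 relative to siCtrl cells 0 of 6 passed with the block, where 2.72% of all genes were higher and 4.35% lower. There, 3 of the 6 had an unadjusted p under 0.05, beside 3755 of 14912 genes. DESeq2 with the block called 2, Alas1 as lower and Hmox1 as higher, beside 1194 genes lower and 746 higher of 13713. In siSirt1 relative to siLmod1 cells, Alas1 and Urod fell and 0 of 6 rose, where 7.43% of all genes were higher and 8.43% lower. The median log2 fold change of the 6 genes with the block was 0.23 in siLmod1 against siCtrl, -0.27 in siSirt1 against siCtrl and -0.52 in siSirt1 against siLmod1, while the medians of all genes lay at -0.01, 0.01 and 0.01. A blocked fit over all 15 libraries together, which shares 1 estimate of the spread, called 0 of 6 in siLmod1 against siCtrl. It called Alas1 as lower and Hmox1 as higher in siSirt1 against siCtrl. In siSirt1 against siLmod1 it called 4 of 6 as lower, Alas1, Urod, Tfrc and Slc40a1, as DESeq2 with the block did. Over all genes DESeq2 with the block called 1548 lower and 1600 higher of 16091 there. Calls over all genes were not counted for the fit of all 15 libraries.

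**Figure D3:**
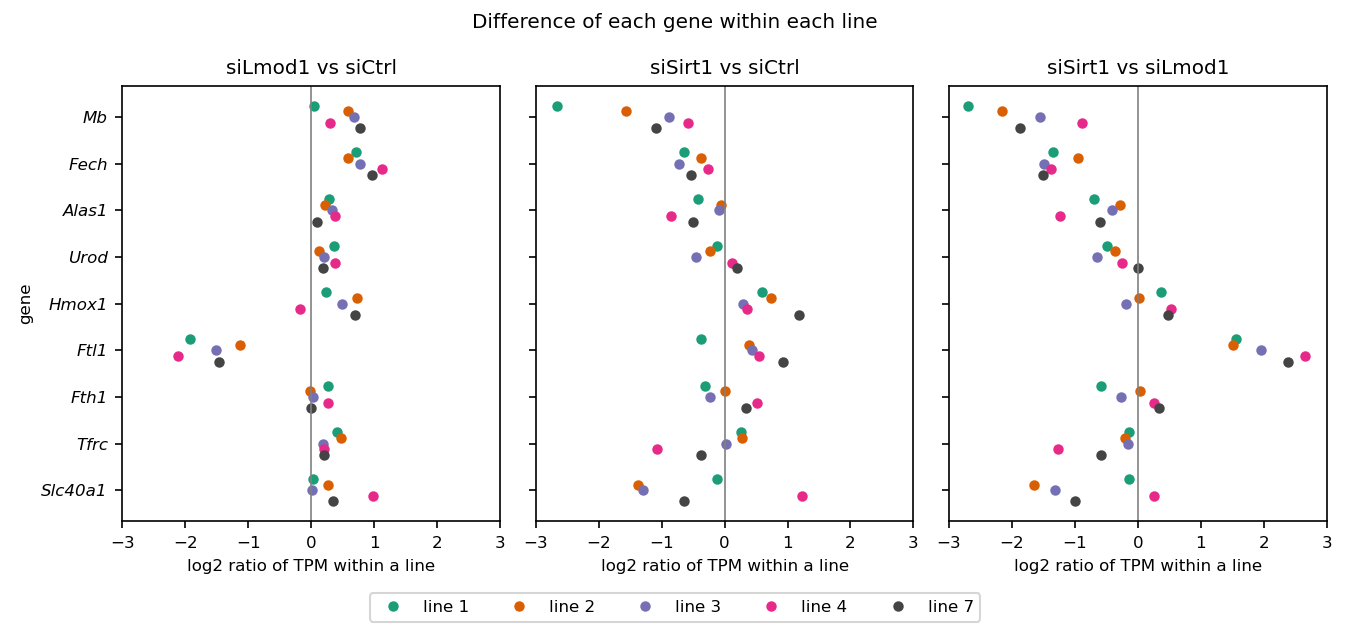
Log2 ratio of TPM within each primary line (horizontal axis) for the 9 genes (vertical axis) in siLmod1 against siCtrl, siSirt1 against siCtrl and siSirt1 against siLmod1. Each point is 1 line. Fech is above 0 in 5 of 5 lines in the first panel and below 0 in 5 of 5 lines in the second, and Ftl1 lies between -2.12 and -1.14 in the first.

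Myoglobin, encoded by Mb (ENSMUSG00000018893, chr15:77015487-77050670), was most abundant in siLmod1 cells and least abundant in siSirt1 cells. In lines 1, 2, 3, 4 and 7, in that order throughout, its level was 1228, 1295, 1326, 739 and 935 TPM in siLmod1 cells, 189, 292, 451, 401 and 256 TPM in siSirt1 cells, and 1198, 868, 829, 602 and 546 TPM in siCtrl cells. The highest siSirt1 library lay below the lowest library of both other groups. The siLmod1 and siCtrl groups overlapped, although the siLmod1 library was the higher one in 5 of 5 lines. With the line as a block the log2 fold change was -1.48 ± 0.28 (SE) for siSirt1 against siCtrl, 0.43 ± 0.10 for siLmod1 against siCtrl and -1.94 ± 0.23 for siSirt1 against siLmod1. The size of the siSirt1 difference varied between lines, with a log2 ratio of TPM of -2.67 in line 1, where the siCtrl level was highest, and -0.58 in line 4. Without line 1, whose siSirt1 library pairs least clearly, the blocked log2 fold change against siCtrl was -1.17. In bulk samples, fewer cells of a type and less RNA per cell cannot be told apart. The other globins were close to absent, with cytoglobin (Cygb) the only 1 of 7 to average over 1 TPM. An antisense model, Gm49540, shares 412 exon bases with Mb and was not analysed here, and the kit keeps no strand.

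Of 11 genes of late muscle differentiation, 4 fell in siSirt1 relative to siCtrl cells with the line as a block and 0 rose, which is 36.4% and 0.0%, beside 4.35% and 2.72% of all genes. They were Tcap, which encodes a Z-disc cap protein of titin (log2 fold change -1.9995, adjusted p = 0.00244), Casq1, for calsequestrin, which buffers stored calcium (-2.22, adjusted p = 0.0131), the skeletal actin gene Acta1 (-0.88, adjusted p = 0.0327) and the slow troponin C gene Tnnc1 (-0.75, adjusted p = 0.0271). The other 7 did not pass (adjusted p = 0.0518 to 0.636). Of the 11, 0 lay above 0, with a median log2 fold change of -0.66, beside 0.01 for all genes. An unadjusted p under 0.05 was reached by 9 of the 11 in that fit, beside 3755 of 14912 genes. DESeq2 with the block called 8, beside 746 genes higher and 1194 lower of 13713. Tcap and Casq1 were called with any line left out, whereas Acta1 and Tnnc1 were not called without line 1, 2, 4 or 7. In siLmod1 relative to siCtrl cells 3 of 11 fell and 1 rose, 27.3% and 9.09%, beside 16.5% and 12.9% of all genes. Casq1 fell by 0.74, the cardiac actin gene Actc1 fell by 0.49 and Tnnc1 fell by 0.34 on the log2 scale, in cells whose Mb level was the higher one in every line. The fast troponin T gene Tnnt3 rose by 0.23, a call that was lost without line 1, 3, 4 or 7. Relative to siLmod1 cells 3 of 11 fell in siSirt1 cells and 0 rose, 27.3% and 0.0%, beside 8.43% and 7.43% of all genes. DESeq2 with the block called 5 of 11 in siLmod1 against siCtrl, beside 1673 genes higher and 2302 lower of 13798. In siSirt1 against siLmod1 it called 7 of 11, beside 1600 genes higher and 1548 lower of 16091. Without the block, edgeR called 0 of 11 in all 3 comparisons, with 0, 3 and 2 at an unadjusted p under 0.05 in siLmod1 against siCtrl, siSirt1 against siCtrl and siSirt1 against siLmod1, and DESeq2 called 0, 2 and 1.

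Among 6 genes of myoblast identity, 3 fell in siLmod1 relative to siCtrl cells with the block and 0 rose. They were Pax7, a transcription factor of muscle stem cells (log2 fold change -0.79, adjusted p = 0.000177), Myog, which encodes myogenin, a transcription factor of differentiation (-0.50, adjusted p = 0.000167), and Cdh15, for M-cadherin (-0.32, adjusted p = 0.00459). In that comparison 16.5% of all genes were lower and 12.9% higher with the block. In siSirt1 relative to siCtrl cells 0 of 6 passed, beside 4.35% of all genes lower and 2.72% higher. There, 2 of the 6 had an unadjusted p under 0.05, beside 3755 of 14912 genes. DESeq2 with the block called 2, beside 746 genes higher and 1194 lower of 13713. Relative to siLmod1 cells, Pax7 rose in siSirt1 cells by 1.12 (adjusted p = 0.00804) and Des, for desmin, fell by 0.61 (adjusted p = 0.0258), a call that was lost without line 1, 3, 4 or 7. These calls were 16.7% of the list each way, beside 7.43% of all genes higher and 8.43% lower. Without the block edgeR called 0 of 6 in all 3 comparisons, with 1, 1 and 2 at an unadjusted p under 0.05, and DESeq2 called 0, 0 and 2. The part of differentiation in the differences of Mb and of the other 8 genes was not tested.

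Haem synthesis was followed at its first step, at the fifth and at its last step. The last step is ferrochelatase, encoded by Fech (ENSMUSG00000024588, chr18:64452914-64490251), which inserts iron into the ring. Its level was 372, 337, 348, 179 and 314 TPM in siLmod1 cells, 146, 174, 124, 68.6 and 111 TPM in siSirt1 cells, and 229, 226, 204, 82.1 and 160.3 TPM in siCtrl cells. Line 4 was the lowest in every group. Within each of the 5 lines the order was the same, with siLmod1 highest, siCtrl between and siSirt1 lowest. Only the siSirt1 and siLmod1 groups did not overlap. With the line as a block the log2 fold change was 0.78 ± 0.07 (SE) for siLmod1 against siCtrl, -0.65 ± 0.09 for siSirt1 against siCtrl and -1.45 ± 0.12 for siSirt1 against siLmod1. Leaving out 1 line at a time kept these values at 0.73 to 0.87, -0.70 to -0.61 and -1.56 to -1.38. After lines and groups were accounted for, 2.26% of the variance of Fech was left, the least among the 9 genes.

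The first step is carried out outside the red cell lineage by the enzyme of Alas1 (ENSMUSG00000032786, chr9:106233455-106248654). Its level was 93.0, 68.3, 50.4, 87.9 and 45.1 TPM in siLmod1 cells, 57.2, 56.2, 38.0, 37.4 and 29.8 TPM in siSirt1 cells, and 76.8, 58.5, 40.3, 67.7 and 42.2 TPM in siCtrl cells. All 3 groups overlapped, but within lines siLmod1 was highest and siSirt1 lowest in 5 of 5. With the line as a block Alas1 rose in siLmod1 relative to siCtrl cells, by a log2 fold change of 0.21 ± 0.05 (SE; adjusted p = 0.0104, edgeR). It fell in siSirt1 relative to siLmod1 cells, by -0.75 ± 0.15 (adjusted p = 0.0169). The difference of siSirt1 from siCtrl cells, -0.52 ± 0.15, did not pass (adjusted p = 0.0764). The rise in siLmod1 was called with any line left out, whereas the fall relative to siLmod1 was not called without line 1 (adjusted p = 0.0615).

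Uroporphyrinogen decarboxylase, the fifth enzyme, is encoded by Urod (ENSMUSG00000028684, chr4:116989965-116994413). Its level lay at 42.4 to 85.1 TPM in siLmod1 cells, 40.3 to 71.3 TPM in siSirt1 cells and 37.1 to 65.8 TPM in siCtrl cells, so that the groups overlapped. Line 4 was the highest in each. With the block Urod rose in siLmod1 relative to siCtrl cells (log2 fold change 0.21 ± 0.06, SE; adjusted p = 0.0203, edgeR; higher in 5 of 5 lines). It fell in siSirt1 relative to siLmod1 cells (-0.46 ± 0.10, adjusted p = 0.02, lower in 4 of 5 lines). The siLmod1 call was lost without line 1 (adjusted p = 0.0841) or line 3 (0.0528). The call between the knockdowns was lost without line 1 (0.0728), line 3 (0.0803) or line 4 (0.0502). The Fech to Urod ratio of TPM, 2.10 to 7.42 in siLmod1 cells, 0.962 to 4.31 in siSirt1 cells and 1.25 to 4.75 in siCtrl cells, was the highest in siLmod1 and the lowest in siSirt1 within each line.

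Hmox1 (ENSMUSG00000005413, chr8:75093621-75100589) encodes the inducible haem oxygenase, which degrades haem to biliverdin, carbon monoxide and iron. Its level was 247, 138, 219, 90.9 and 224 TPM in siLmod1 cells, 318, 139, 192, 131 and 311 TPM in siSirt1 cells, and 211, 83.4, 156, 103 and 138 TPM in siCtrl cells. The groups overlapped, and the siSirt1 library was above its own siCtrl library in 5 of 5 lines and the siLmod1 library in 4 of 5. With the block Hmox1 rose in siLmod1 relative to siCtrl cells (log2 fold change 0.35 ± 0.12, SE; adjusted p = 0.047, edgeR). That call was lost without line 1, 2, 3 or 7 (adjusted p = 0.0813 to 0.154), and without line 4, the 1 line that went the other way, the value was 0.51 (adjusted p = 0.000655). The siSirt1 difference from siCtrl, 0.49 ± 0.13, was larger and did not pass (adjusted p = 0.0594), and the 2 knockdowns differed by 0.13 ± 0.10 (adjusted p = 0.422). Hmox1 was thus the 1 gene of the 6 with a positive log2 fold change in both knockdowns. It is a target of the transcription factor NRF2. Of 10 other NRF2 target genes, 5 rose and 2 fell in siLmod1 relative to siCtrl cells with the block, beside 12.9% and 16.5% of all genes. For siSirt1 relative to siCtrl, 0 rose and 1 fell, beside 2.72% and 4.35%. DESeq2 with the block called 4 there, beside 746 genes higher and 1194 lower of 13713. For siSirt1 relative to siLmod1, 1 rose and 1 fell in edgeR, beside 7.43% and 8.43%. Without the block edgeR called 0, 0 and 1 of 10 in these comparisons, with 1, 2 and 2 at an unadjusted p under 0.05, and DESeq2 called 1, 0 and 1. The 1 gene that passed edgeR without the block was Txnrd1, which encodes thioredoxin reductase and was higher in siSirt1 than in siLmod1 cells (log2 fold change 0.86, adjusted p = 0.0372). In siLmod1 cells Me1, which encodes malic enzyme, rose by 0.28 (adjusted p = 0.00595) and Txnrd1 fell by 0.44 (adjusted p = 0.000435).

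The ferritin light chain message Ftl1 (ENSMUSG00000050708, chr7:45457944-45459884) was low in siLmod1 cells. Its level was 624, 348, 444, 535 and 619.9 TPM in siLmod1 cells, 1843, 999, 1721, 3391 and 3241 TPM in siSirt1 cells, and 2380.1, 767, 1274, 2324 and 1710.04 TPM in siCtrl cells. Every siLmod1 library lay below every library of the other 2 groups. The siLmod1 group was also the most uniform, with a coefficient of variation of 23.01%, against 46.3% in siSirt1 and 40.8% in siCtrl cells. With the line as a block the log2 fold change was -1.68 ± 0.12 (SE) for siLmod1 against siCtrl, or 0.312 times the siCtrl level. For siSirt1 it was 0.25 ± 0.17 against siCtrl, with 4 of 5 lines higher and line 1 lower, and 1.91 ± 0.17 against siLmod1. The processed copies Ftl1-ps1 and Ftl1-ps2 had 0.162% to 0.298% of the Ftl1 count, and reads of these near-identical genes could be split between them.

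The ferritin heavy chain, encoded by Fth1 (ENSMUSG00000024661, chr19:9980598-9985098), carries the site that oxidises ferrous iron. Its level was 3652, 3772, 4635, 2275 and 3614 TPM in siLmod1 cells, 2444, 3864, 3864, 2725 and 4558 TPM in siSirt1 cells, and 3042, 3839.99, 4526, 1901 and 3619 TPM in siCtrl cells. The groups overlapped throughout and the lines disagreed, with 3 of 5 higher by TPM in each comparison. The fold changes that follow rest on counts with other library scaling, so their sign can differ from that of most lines. With the block the log2 fold change was 0.06 ± 0.06 (SE; adjusted p = 0.476, edgeR) for siLmod1 against siCtrl, -0.07 ± 0.12 (0.754) for siSirt1 against siCtrl and -0.15 ± 0.14 (0.515) for siSirt1 against siLmod1. With a line left out the siLmod1 value stayed above 0, at 0.025 to 0.11, whereas both siSirt1 values turned positive without 1 line, at up to 0.018 against siCtrl and 0.0016 against siLmod1. In siLmod1 cells the heavy and light messages stood at 1.04 and 0.312 times the siCtrl level. Both carry nearly the same iron-responsive element, printed above. Its part in these levels was not tested, and translation was not measured.

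The Fth1 to Ftl1 ratio of TPM was 5.86, 10.8, 10.4, 4.25 and 5.83 in siLmod1 cells, 1.33, 3.87, 2.24, 0.804 and 1.41 in siSirt1 cells, and 1.28, 5.01, 3.55, 0.818 and 2.12 in siCtrl cells. In every line the siLmod1 ratio was the highest of the 3. Over the groups, the lowest siLmod1 ratio, 4.25 in line 4, still lay under the siCtrl ratio of line 2. The size of the ratio rests on the authors' length for Fth1, which is the same in all libraries. The comparison within lines does not depend on it.

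**Figure D4:**
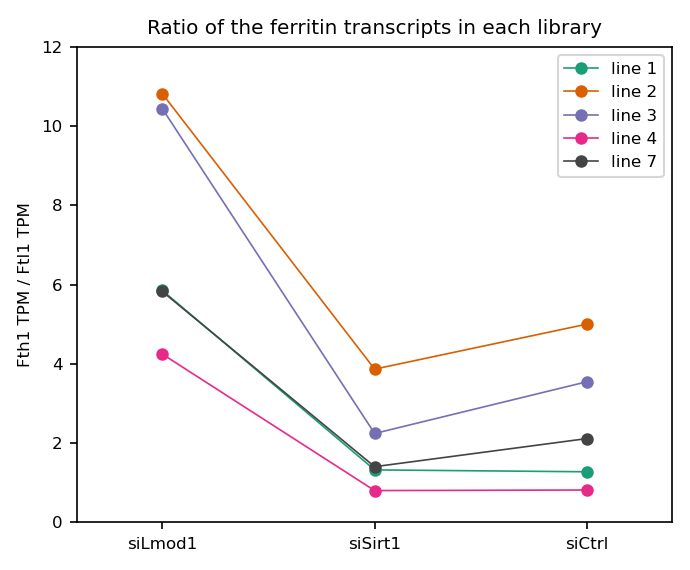
Ratio of Fth1 TPM to Ftl1 TPM (vertical axis, from 0) in each siLmod1, siSirt1 and siCtrl library, with 1 coloured line per primary line. The siLmod1 ratios lie between 4.25 and 10.8 and are the highest of the 3 within each line.

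The transferrin receptor gene Tfrc (ENSMUSG00000022797, chr16:32608920-32632794) held 4 of the 7 elements printed above, all after the coding sequence. Its level was 189.7, 219, 184, 193 and 159.9 TPM in siLmod1 cells, 171, 190.3, 166, 79.8 and 107 TPM in siSirt1 cells, and 144, 157, 163, 168 and 139 TPM in siCtrl cells. The siLmod1 library was above its siCtrl library in 5 of 5 lines, with a small overlap between the groups. The siSirt1 libraries of lines 4 and 7 were the lowest of the 15. With the block Tfrc rose in siLmod1 relative to siCtrl cells (log2 fold change 0.25 ± 0.06, SE; adjusted p = 0.00799, edgeR), and the call held with any 1 line left out (adjusted p up to 0.0392). The difference of siSirt1 from siCtrl cells was -0.31 ± 0.21 (adjusted p = 0.402), with 3 lines higher and 2 lower, and that from siLmod1 cells was -0.58 ± 0.18 (adjusted p = 0.0696), lower in 5 of 5 lines.

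Ferroportin, the iron exporter, is encoded by Slc40a1 (ENSMUSG00000025993, chr1:45908068-45926523) and was the least abundant of the 9. It had 158 to 1261 counts per library. Its level lay at 4.75 to 14.0 TPM in siLmod1 cells, 2.22 to 5.65 TPM in siSirt1 cells and 2.41 to 13.8 TPM in siCtrl cells. The high value in both siLmod1 and siCtrl cells was line 3, and in siSirt1 cells line 3 stood at 5.61 TPM. With the block the log2 fold change was 0.26 ± 0.11 (SE; adjusted p = 0.111, edgeR) for siLmod1 against siCtrl and -0.60 ± 0.33 (0.303) for siSirt1 against siCtrl. For siSirt1 against siLmod1 it was -0.87 ± 0.25 (adjusted p = 0.0517), and without line 4, where siSirt1 was the higher one, -1.11 (adjusted p = 0.0272).

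The 9 genes were set in the wider pathway through 78 further genes of haem and iron handling. Without the block, edgeR called 0 of the 63, 62 and 63 tested genes in siLmod1 against siCtrl, siSirt1 against siCtrl and siSirt1 against siLmod1. An unadjusted p under 0.05 was reached by 5, 8 and 13, beside 1351 of 15022, 1440 of 14912 and 2475 of 14998 genes. DESeq2 without the block called 1, 0 and 4. Over all genes it called 97 higher and 161 lower of 15750, 99 and 187 of 14567, and 455 and 467 of 16337. With the block, 15 of 63 rose and 6 fell in siLmod1 relative to siCtrl cells, which is 23.8% and 9.52%, beside 12.9% and 16.5% of all genes. For siSirt1 against siCtrl, 2 of 62 rose and 2 fell, 3.23% each, beside 2.72% and 4.35%. For siSirt1 against siLmod1, 2 of 63 rose and 11 fell, 3.17% and 17.5%, beside 7.43% and 8.43%. Leaving out a line changed these counts. For siSirt1 against siCtrl, 0 genes in all passed without line 2 or line 3, and 0 rose and 1 fell without line 1 or line 7. For siSirt1 against siLmod1, 0 rose and 2 fell without line 1, 1 rose and 3 fell without line 3, and 0 rose and 5 fell without line 4. For siLmod1 against siCtrl, 9 rose and 5 fell without line 1, and 9 rose and 6 fell without line 3.

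**Figure D5:**
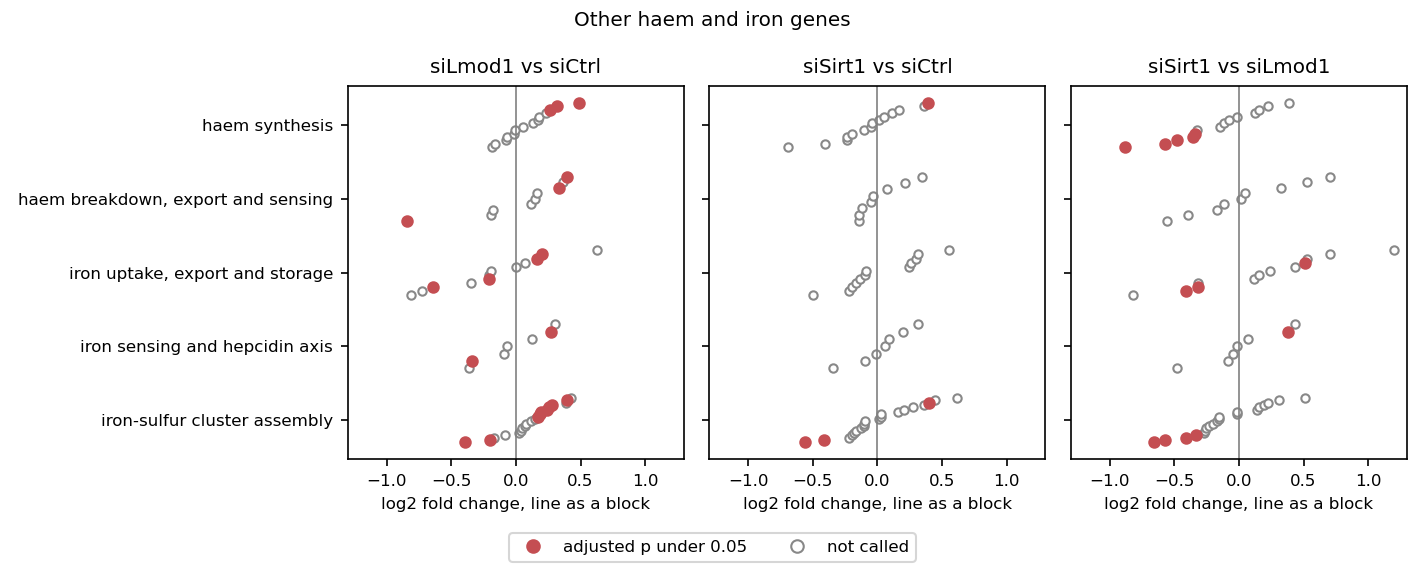
Log2 fold change with the line as a block (horizontal axis) of the other haem and iron genes, by list (vertical axis), in the 3 comparisons. Filled points passed an adjusted p of 0.05 and open points did not. In the first panel 15 genes rose and 6 fell, and in the third 2 rose and 11 fell.

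In haem synthesis 3 of 14 tested genes rose in siLmod1 relative to siCtrl cells and 0 fell, 21.4% and 0.0%, beside 12.9% and 16.5% of all genes, and these 3 calls held with any line left out. They were Slc25a39, a mitochondrial glutathione carrier needed for haem synthesis (log2 fold change 0.49, adjusted p = 0.000439), Uros, the fourth enzyme (0.32, adjusted p = 0.011), and Slc25a38, the mitochondrial glycine carrier (0.26, adjusted p = 0.0137). In siSirt1 relative to siCtrl cells Cpox, the sixth enzyme, rose (0.39, adjusted p = 0.0463) and 0 fell, 1 of 14 or 7.14%, beside 2.72% higher over all genes. That call was lost with any line left out (adjusted p = 0.0777 to 0.136). Relative to siLmod1 cells 5 of 14 fell in siSirt1 cells and 0 rose, 35.7% and 0.0%, beside 8.43% and 7.43% of all genes. These included Abcb6, a porphyrin transporter (-0.88, adjusted p = 0.0157), Uros (-0.57, adjusted p = 0.0102), Pgrmc1, a haem-binding membrane protein (-0.48, adjusted p = 0.0154), and Abcb10, a mitochondrial transporter (-0.36, adjusted p = 0.026). Of these 4, Uros was called with any line left out, Abcb6 was not called without line 1, Pgrmc1 without line 1 or 3, and Abcb10 without line 1, 2, 3 or 4.

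In haem breakdown, export and sensing, 2 of 9 rose and 1 fell in siLmod1 relative to siCtrl cells, 22.2% and 11.1%, near the 12.9% and 16.5% of all genes. Slc48a1, which moves haem out of lysosomes, rose by 0.39 on the log2 scale (adjusted p = 0.00293) and Blvrb, a biliverdin reductase, by 0.33 (adjusted p = 0.0363), the second call being lost without line 1, 3, 4 or 7. Lrp1, the receptor that takes up haem bound to haemopexin among many other ligands, fell by 0.84 (adjusted p = 0.00177). With the block, edgeR called 0 genes of this list in siSirt1 against siCtrl and in siSirt1 against siLmod1. An unadjusted p under 0.05 was reached by 1 and 2, beside 3755 of 14912 and 4789 of 14998 genes. DESeq2 with the block called 0 and 2, beside 1600 genes higher and 1548 lower of 16091 in siSirt1 against siLmod1.

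Among genes of iron uptake, export and storage 2 of 12 rose and 2 fell in siLmod1 relative to siCtrl cells, 16.7% each, near the 12.9% and 16.5% of all genes. The importer gene Slc11a2 rose by 0.20 (adjusted p = 0.00921) and Pcbp1, a chaperone that loads iron into ferritin, by 0.17 (adjusted p = 0.0179). The metal importer gene Slc39a14 fell by 0.64 (adjusted p = 0.00132), and Ncoa4, the receptor that sends ferritin to lysosomes, fell by 0.21 (adjusted p = 0.0449). The calls of Slc11a2 and Slc39a14 held with any line left out, while that of Pcbp1 was lost without line 1, 3 or 7 and that of Ncoa4 without line 1, 2, 3 or 4. For siSirt1 against siLmod1, 1 of 12 rose and 2 fell, 8.33% and 16.7%, beside 7.43% and 8.43%. There Ncoa4 rose by 0.51 (adjusted p = 0.0187), while Slc11a2 fell by 0.41 (adjusted p = 0.0161) and Pcbp1 fell by 0.32 (adjusted p = 0.04). These calls were lost without line 1 or 4 for Ncoa4, without line 1, 2 or 3 for Slc11a2 and with any line left out for Pcbp1. In the iron sensing list 1 of 7 rose and 1 fell in siLmod1 relative to siCtrl cells, 14.3% each, near the share of all genes, and both calls held with any line left out. Aco1, which encodes iron regulatory protein 1, rose by 0.27 (adjusted p = 0.00326). Fbxl5, which encodes the iron-sensing subunit of the ligase that degrades iron regulatory protein 2, fell by 0.34 (adjusted p = 0.00258).

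Iron-sulfur cluster assembly, the other large use of mitochondrial iron, had 7 of 20 genes that rose and 2 that fell in siLmod1 relative to siCtrl cells with the block, beside 12.9% and 16.5% of all genes. Bola3 rose by 0.40 (adjusted p = 0.00183) and the scaffold gene Iscu rose by 0.26 (adjusted p = 0.0118), whereas Nfu1, a late carrier of clusters, fell by 0.39 (adjusted p = 0.001) and Mms19, of the cytosolic targeting complex, fell by 0.20 (adjusted p = 0.0105), and these 4 calls held with any line left out. For siSirt1 against siCtrl, 1 of 20 rose, Isca1 (0.40, adjusted p = 0.0266), and 2 fell, among them Mms19 (-0.41, adjusted p = 0.0376), beside 2.72% and 4.35% of all genes. The calls of Isca1 and Mms19 were lost without line 1, 2, 3 or 7. For siSirt1 against siLmod1, 0 of 20 rose and 4 fell, beside 7.43% and 8.43%.

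The levels of the 9 genes were also compared across the 15 libraries after each line's mean was subtracted, as a description without a test, since the libraries share lines and treatments. Fech went with Urod (Pearson r 0.89), with Mb (0.86) and with Alas1 (0.84), and against Ftl1 (-0.91). Mb, Fech and Ftl1 were chosen for their group differences, so the values of r between them partly restate that choice. Alas1 went with Tfrc at 0.90. Fth1 and Ftl1 stood at -0.21, and Hmox1 was within 0.39 of 0 with each of the other 8. When the line means were kept, Fech and Urod stood at 0.06 and Fech and Ftl1 at -0.85. Among the 10002 genes that averaged at least 5 CPM, the one most like Mb was Rrad, which encodes a small GTP-binding protein of muscle (r 0.98), followed by Stk35, Sh2b1, Clns1a and Gss. Most like Fech was the histone gene Hist1h2bc (0.99), followed by Iars2, Txnrd2, Prkar2a and Acss2. Most like Ftl1 was the histone chaperone gene Nap1l1 (0.99), followed by Pi4k2b, Tbc1d10b, the lysosomal cystine exporter gene Ctns, and Pwp1. With line means kept, 0 of these 15 genes remained among the 5 most alike.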

How the data were processed

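Per the labels' protocols, polyadenylated RNA was prepared with a TruSeq v2 kit. The authors deposited raw counts per Ensembl gene and TPM values. Per the submitters' processing notes the build is mm10 and DESeq2 was used. Which aligner, counter and annotation release were used is not given in the sources used here. A symbol was found in GENCODE M21 for 48970 of 49315 IDs. For 81.0% of abundant genes, count divided by TPM gave a length within 1% of the M21 exon length. The IDs without a symbol held 0.0320% of counts.

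Tables were read in Python 3.11.15 with pandas 2.3.3. Models were fitted over all genes in R 4.3.3 with edgeR 4.0.16 (filterByExpr, TMM, quasi-likelihood F test), with an adjusted p (Benjamini-Hochberg, over all genes tested) under 0.05 as the threshold. Counts of lines that were higher or lower, and ratios within lines, use TPM without TMM factors. These factors were higher for siSirt1 than for siCtrl in every line, at 0.966 to 1.08 against 0.921 to 1.01. Small differences can therefore differ in sign between the 2 measures. The main model used the group alone (8 residual degrees of freedom). A second fit added the line as a block (4 degrees of freedom). The numbers pair the libraries: the series' design text names 5 primary lines, and same-numbered libraries correlated between groups at 0.278 to 0.889 after group means were removed (15 pairs), against -0.517 to 0.269 for different numbers (60 pairs). The weakest pairs, 0.278 and 0.304, were those of siSirt1 line 1. Without the block, p-values measure the spread between the libraries of a group, which includes the spread between lines. With the block they measure how far the group difference varies between the 5 lines. Each group and line had 1 transfection. The 2 comparisons with siCtrl share its libraries.

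Other alternatives were DESeq2 1.42.0, RLE size factors, no filter on low counts, 1 fit of all 15 libraries, each library or line left out, CPM in place of TPM, and likeness with line means kept. The block with RLE size factors was chosen after seeing the data. The models were tested on simulated data. The members and gene lists were chosen with earlier results of these data known. All members were named, with Lmod1 and Sirt1 and, from each list and comparison, up to 4 called genes with the smallest p in the blocked fit, apart from items that are not reported here. Total counts were 21004908 to 33601761 per library, and no interval is given for single counts.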

Additional observations from a re-analysis of the deposited data

Results flagged for a closer look

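Among 27 combinations of gene and group searched, 1 held a library far from the others of its group: Urod stood at 71.3 TPM in the siSirt1 library of line 4, and the other 4 siSirt1 libraries lay at 40.3 to 46.2 TPM. About 1 in 20 such groups is picked out by chance. Line 4 also had the highest Urod level in the siLmod1 and siCtrl groups.

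Between the 2 knockdowns, 2 of the 6 tested genes differed with the line as a block. Alas1 had a log2 fold change of -0.75 in siSirt1 against siLmod1 cells (adjusted p = 0.0169, edgeR), and Urod had -0.46 (adjusted p = 0.02). Neither was called without the block (adjusted p = 0.195 and 0.323). Mb differed by -1.94 and Fech by -1.45, and within each of the 5 lines both lay above siCtrl in siLmod1 cells and below it in siSirt1 cells. Ftl1 differed by 1.91, with siLmod1 below siCtrl in 5 of 5 lines and siSirt1 above it in 4 of 5. The differences of Mb, Fech and Ftl1 were not tested, because the set was chosen on them.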

How the results depend on the processing

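In edgeR fits of 2 groups without the block, 0 of the other haem and iron genes were called in any comparison. The same held with RLE size factors, with no filter on low counts and with any 1 library left out. For siLmod1 against siCtrl the replicate block gave 21 calls, as did the block with RLE size factors, DESeq2 gave 1, DESeq2 with the block 18, and the blocked fit of all 15 libraries 7. With the block and line 1, 2, 3, 4 or 7 left out it was 14, 23, 15, 22 and 18. For siSirt1 against siCtrl the block gave 4, also with RLE size factors, DESeq2 with the block 7 and the blocked fit of all 15 libraries 11, with 1, 0, 0, 4 and 1 with the block and each line left out. For siSirt1 against siLmod1 the block gave 13, with RLE size factors 14, DESeq2 4, DESeq2 with the block 18, and the fits of all 15 libraries 2 without and 21 with the block, with 2, 10, 4, 5 and 10 with the block and each line left out. The cause was not tested. Over all genes the replicate block called 12.9% higher and 16.5% lower, 2.72% and 4.35%, and 7.43% and 8.43% in these 3 comparisons. DESeq2 with the block called 1673 higher and 2302 lower of 13798, 746 and 1194 of 13713, and 1600 and 1548 of 16091. Without the block DESeq2 called 97 and 161 of 15750, 99 and 187 of 14567, and 455 and 467 of 16337. Calls of the other alternatives were not counted over all genes.

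Leaving out a library or line turned the sign of small values. Fth1 ranged over -0.088 to 0.16 in siLmod1 against siCtrl, -0.21 to 0.043 in siSirt1 against siCtrl (0.018 with the block and without line 1) and -0.25 to 0.0016 in siSirt1 against siLmod1, Slc40a1 over -0.090 to 0.57 in siLmod1 against siCtrl, and Hmox1 over -0.038 to 0.27 between the knockdowns. In siLmod1 against siCtrl, G6pdx ranged over -0.054 to 0.75, Tnnt3 over -0.0010 to 0.41 and Srxn1 over -1.31 to 1.97. Mb, Fech, Ftl1, Alas1, Urod and Tfrc kept their direction in every alternative run. By CPM 5 of 9 ranks remained, and with line means kept 0 of 15 genes most alike remained. Slc40a1 had the fewest counts of the 9 genes, 158 in its lowest library, so counting error was largest there.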
